A study of Homo sapiens with 40 samples.

Results

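The baseline difference between U2OS and hTERT-RPE1 cells was read from the arrays of cells that had received control siRNA only. U2OS is an osteosarcoma line, and hTERT-RPE1 is a line of retinal pigment epithelial cells made immortal with the catalytic subunit of telomerase. The arrays were chosen by their labels, as control siRNA collected on day 1 or day 2 after transfection, which gave 12 of the 40 arrays of the series, 6 per line and 3 per line and day. All 12 cultures were transfected with the control pool at 15 nM in the transfection reagent HiPerFect, so no culture here was free of siRNA or reagent, and total RNA was measured. A further 4 control arrays of day 3, 2 per line, had been normalized apart from these and were used to check directions, with their differences given as a description. The study set the tumor line beside the normal line to ask how each responds when regulators of histone genes are lost, and the values below are the starting point of that comparison. Its methods state that U2OS cells grew in DMEM and hTERT-RPE1 cells in a mixture of F12 and DMEM that also held hygromycin B, so the line and its medium cannot be told apart. Each kind of cell is represented by a single line, so the differences are those of U2OS and hTERT-RPE1 and not of tumor and normal cells in general.

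Retinal pigment epithelium is a pigmented layer that feeds the photoreceptors and recycles retinoids, the vitamin A derivatives that include retinal, the chromophore of the visual pigments, and the signal molecule retinoic acid. Osteosarcoma is a tumor of bone-forming mesenchymal cells, and osteoblasts are known for their collagen-rich matrix and for transcription factors such as RUNX2. Cells in long-term culture lose many markers of their tissue, and they differ in the matrix, growth factors, adhesion molecules and cell cycle regulators they make.

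Of the 22069 Ensembl genes on the array, 11837 (53.6%) differed between the lines at a limma adjusted p under 0.05, with 6226 (28.2%) higher in U2OS and 5611 (25.4%) higher in hTERT-RPE1. A subset of 2573 genes (11.7%) was also at least 2-fold apart, with 1356 (6.14%) higher in U2OS and 1217 (5.51%) higher in hTERT-RPE1. At least 16-fold apart were 155 genes, 71 of them higher in U2OS and 84 higher in hTERT-RPE1. The 6 arrays of U2OS lay wholly above or wholly below the 6 of hTERT-RPE1 for 8419 genes (38.1%). Replicate arrays of a line and day correlated with r between 0.996 and 0.998 across genes, and arrays of different lines with r between 0.939 and 0.944. The median of the array was between 5.44 and 5.50 in hTERT-RPE1 and between 5.58 and 5.64 in U2OS, while the means all lay between 6.00 and 6.05. Centring each array on its own median moved every difference by -0.14 on the log2 scale, and the share of called genes that were higher in U2OS then went from 52.6% to 30.5%, and that among genes at least 2-fold apart from 52.7% to 42.5%. Small differences therefore have no firm direction, and the text below turns on larger ones. Values are log2 levels relative to the rest of the array, so a difference in total RNA per cell cannot be seen, and levels are compared between lines for the same gene, never between genes. The deposited values came with no detection call, so low values were not shown to be above background. Where a line had a mean under 4.80, the highest mean among the markers of leukocytes, endothelium and neurons, a fold below is a ratio of array values and no exact ratio of RNA. This holds, among others, for IL18, KLK6, IL2RB, SERPINA1, SLC7A2, HTATIP2, GABRA3, CYP1B1, ALDH1A3, PCDH10, NRP2, BMP5, NRG3, IGF2, CD40 and NCAM1. The number of arrays limits the precision.

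**Figure D1:**
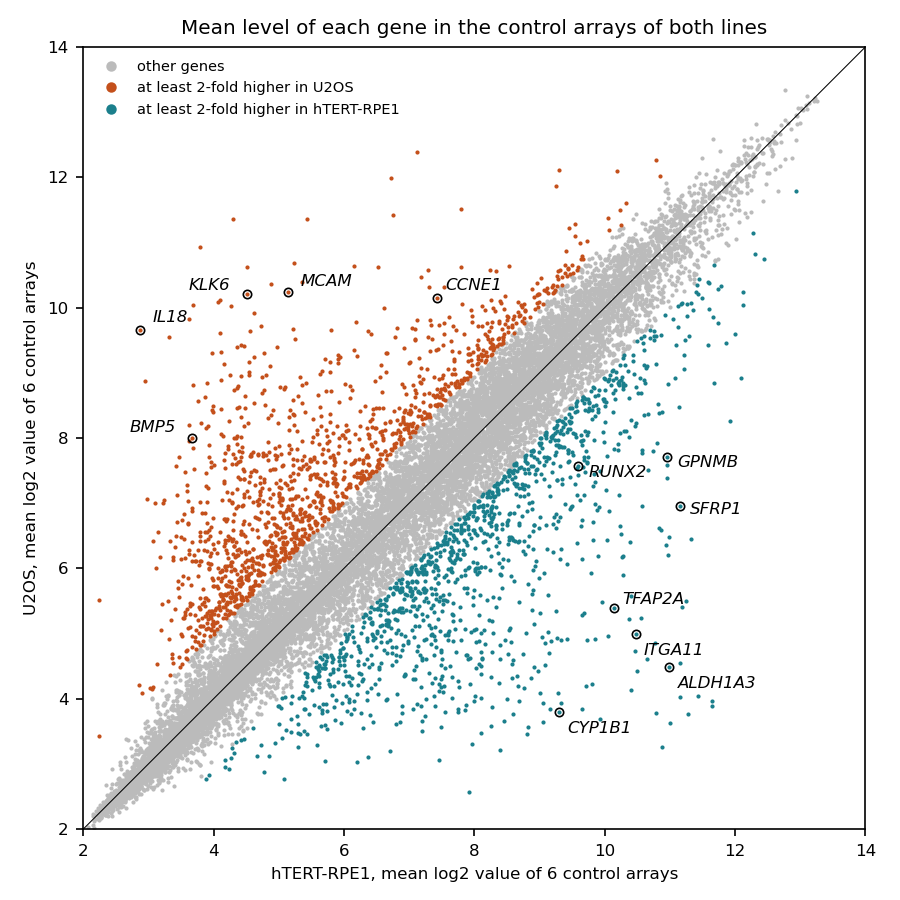
Each point is 1 of the 22069 genes, placed by its mean log2 value over the 6 hTERT-RPE1 control arrays (horizontal axis) and over the 6 U2OS control arrays (vertical axis), and the diagonal marks equal means. The 1356 coloured genes above the diagonal and the 1217 below it were called and at least 2-fold apart, and genes such as IL18 and CYP1B1 lie far from the diagonal on either side.

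Gene symbols were paired with 1924 of the 22069 genes, all from the siRNA screen of the study, and these lean towards genes that differ. Among them 1251 (65%) were called and 294 (15.3%) were also at least 2-fold apart, 151 higher in U2OS and 143 higher in hTERT-RPE1. The largest differences of all belonged to genes with no symbol here. ENSG00000145934 was 10.93 ± 0.36 in U2OS against 3.78 ± 0.21 in hTERT-RPE1 (mean log2 value ± SD, n = 6, limma adjusted p 1.87e-15), and ENSG00000038427 was 3.88 ± 0.30 against 11.65 ± 0.10 (limma adjusted p 1.01e-15).

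Among the genes with the largest differences and a symbol, RefSeq start sites were paired with 4 of the 10 that were higher in hTERT-RPE1 and 3 of the 10 that were higher in U2OS. Genes with no start site or with several in the reference, and any on a chromosome left out here, were not used. The 250 bases before the start (GRCh38.p14) are shown for the first 2 of each, to show the sequence upstream of genes whose levels differed most between the lines. Capitals mark each CG dinucleotide, the base pair step at which human DNA is methylated. They are ALDH1A3 on chr15:100879581-100879830 (plus strand), ITGA11 on chr15:68432164-68432413 (minus strand), KLK6 on chr19:50969592-50969841 (minus strand) and MCAM on chr11:119317131-119317380 (minus strand), each printed 5′ to 3′ on the strand of the gene.
ALDH1A3: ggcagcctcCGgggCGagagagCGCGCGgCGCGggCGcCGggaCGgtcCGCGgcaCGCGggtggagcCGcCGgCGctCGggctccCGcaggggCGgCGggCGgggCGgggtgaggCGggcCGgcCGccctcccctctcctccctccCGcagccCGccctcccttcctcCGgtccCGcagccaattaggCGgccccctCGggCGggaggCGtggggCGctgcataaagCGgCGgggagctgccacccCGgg
ITGA11: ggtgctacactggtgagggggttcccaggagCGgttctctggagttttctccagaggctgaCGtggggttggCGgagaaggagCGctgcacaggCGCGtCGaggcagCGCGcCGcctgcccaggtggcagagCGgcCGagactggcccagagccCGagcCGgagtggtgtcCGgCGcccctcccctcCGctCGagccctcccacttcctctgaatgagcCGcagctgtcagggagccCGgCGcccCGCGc
KLK6: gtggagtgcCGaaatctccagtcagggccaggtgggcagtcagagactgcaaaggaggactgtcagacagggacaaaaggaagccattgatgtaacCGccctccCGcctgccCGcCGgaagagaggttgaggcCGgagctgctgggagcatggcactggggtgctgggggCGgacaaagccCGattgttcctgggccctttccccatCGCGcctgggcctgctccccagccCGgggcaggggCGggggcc
MCAM: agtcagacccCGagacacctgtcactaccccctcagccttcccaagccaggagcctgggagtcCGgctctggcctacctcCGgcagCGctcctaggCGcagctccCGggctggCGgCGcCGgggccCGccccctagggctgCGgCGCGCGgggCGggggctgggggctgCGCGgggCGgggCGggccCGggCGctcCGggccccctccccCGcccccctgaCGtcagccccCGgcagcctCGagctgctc

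The ALDH1A3 sequence held 38 CG dinucleotides, ITGA11 23, KLK6 12 and MCAM 26, where the median over all 35116 such windows in the table was 11 and the upper quartile 23. The motif TATAAA, searched on both strands, was in none of these 4 and in 10.7% of all windows. Of the 3 other windows among the genes with the largest differences, that of DKK1 held it, and those of IGFBP3 and HTATIP2 did not. At least 1 CG was found in 93.9% of all windows, and the count is a description of the sequence, since no methylation was measured.

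The largest difference towards hTERT-RPE1 among genes with a symbol was that of ALDH1A3. This gene, which encodes an enzyme that makes retinoic acid, had values of 10.71 to 11.26 with a median of 11.00 in the 6 hTERT-RPE1 arrays and of 4.03 to 4.89 with a median of 4.50 in the 6 U2OS arrays. The means were 6.51 apart on the log2 scale, or 90.9-fold between array values (SE 0.12, limma adjusted p 9.57e-15), and the U2OS value was not shown to be above background. DHRS3, which reduces retinaldehyde back to retinol, went the same way, with a median of 9.84 (9.69 to 10.01) in hTERT-RPE1 and of 5.00 (4.46 to 5.22) in U2OS. It was 30.3-fold higher in hTERT-RPE1 (limma adjusted p 7.05e-14). CYP1B1, a cytochrome P450 that oxidises steroids and retinoids, ranged from 9.06 to 9.74 (median 9.26) in hTERT-RPE1 and from 3.46 to 4.01 (median 3.83) in U2OS. The array values were 45.3-fold apart (limma adjusted p 1.09e-15), and the U2OS value was not shown to be above background.

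ITGA11, the collagen-binding integrin alpha 11 subunit, had a median of 10.49 (10.35 to 10.57) in hTERT-RPE1 and of 4.96 (4.43 to 5.64) in U2OS, a 44.5-fold difference. The insulin-like growth factor binding protein IGFBP3 had a median of 10.10 (9.28 to 10.63) in hTERT-RPE1 and of 4.95 (4.63 to 5.31) in U2OS, and was 34.0-fold higher in hTERT-RPE1. Both genes also moved with the day, as described below. The secreted Wnt inhibitors DKK1 and SFRP1 were 28.4-fold and 18.3-fold higher in hTERT-RPE1. DKK1 had a median of 10.48 (9.98 to 10.55) there and of 5.59 (5.30 to 5.95) in U2OS, while SFRP1 had a median of 11.16 (10.97 to 11.33) and of 6.97 (6.84 to 7.05). TFAP2A, a transcription factor of ectoderm and neural crest, varied little among arrays, at 10.04 to 10.26 in hTERT-RPE1 and 5.20 to 5.56 in U2OS, a 27.1-fold difference (SE of the log2 difference 0.05). The protocadherin PCDH10 was 23.4-fold and the collagen-degrading protease CTSK 17.1-fold higher in hTERT-RPE1. The genes with the largest differences were picked among those without overlap between the arrays of the lines, so that lack of overlap is no result.

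IL18, a cytokine of the interleukin 1 family, led the genes with a symbol that were higher in U2OS. It was at 2.70 to 3.19 (median 2.85) in hTERT-RPE1 and at 9.52 to 9.83 (median 9.65) in U2OS. The difference of 6.79 on the log2 scale (SE 0.07, limma adjusted p 5.33e-17) equals 111-fold between array values, and the hTERT-RPE1 value was not shown to be above background. The secreted protease KLK6 had a median of 4.69 (3.96 to 4.77) in hTERT-RPE1 and of 10.23 (10.01 to 10.33) in U2OS. It was 51.9-fold higher in U2OS between array values, and its hTERT-RPE1 value was not shown to be above background.

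The adhesion molecule MCAM had a median of 5.01 (4.87 to 5.54) in hTERT-RPE1 and of 10.23 (10.16 to 10.35) in U2OS, which is 34.2-fold. EEF1A2, an elongation factor normally confined to muscle and nerve, was 32.8-fold higher in U2OS, at 10.25 to 10.56 against 4.96 to 5.75. IL2RB, a receptor subunit for interleukins 2 and 15, was 31.2-fold higher. The protease inhibitor SERPINA1 was 30.7-fold higher, the cationic amino acid transporter SLC7A2 27.3-fold, HTATIP2 27.2-fold and the GABA receptor subunit GABRA3 21.9-fold. For each of these 5 genes the lowest U2OS array was at 8.13 or above and the highest hTERT-RPE1 array at 4.66 or below. Their folds are therefore ratios of array values, as for KLK6.

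**Figure D2:**
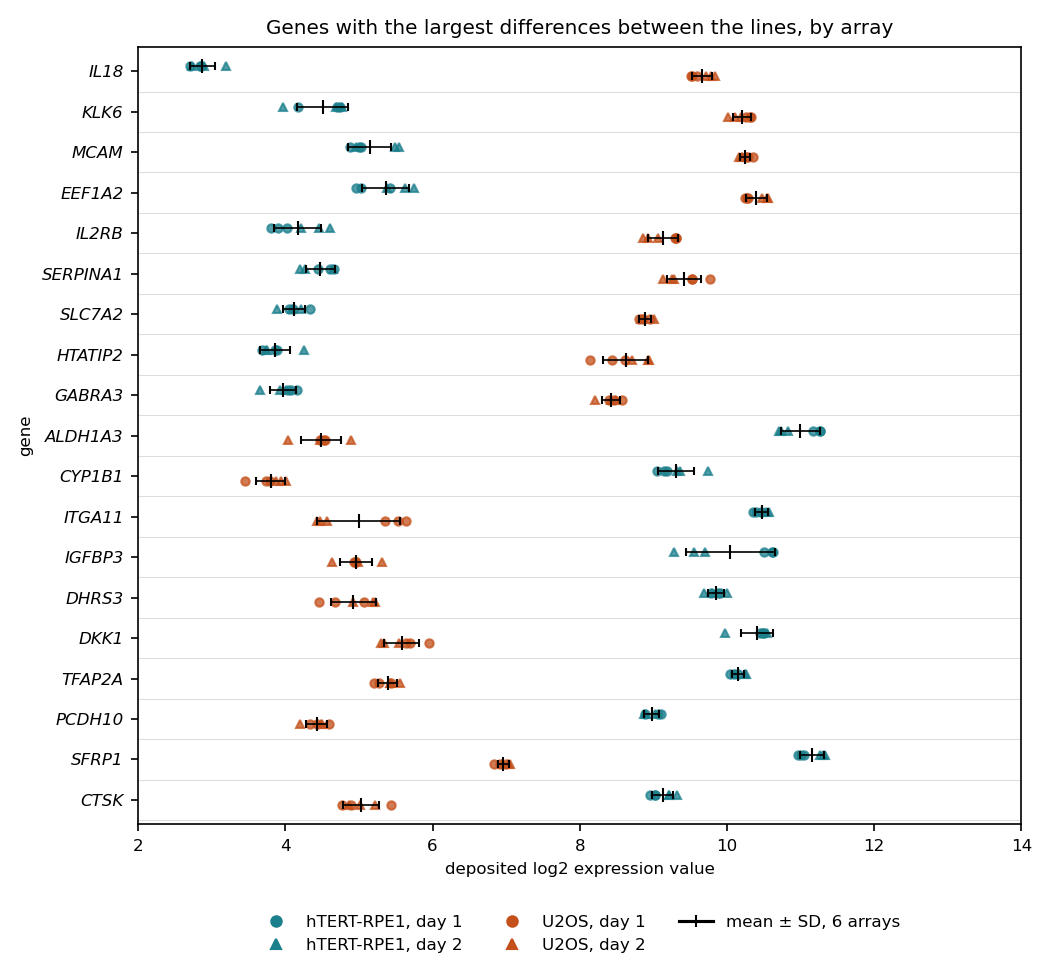
Rows are 9 of the genes with a symbol that were highest in U2OS relative to hTERT-RPE1 and the 10 that were lowest, the horizontal axis is the deposited log2 value, each symbol is 1 control array, and bars give the mean ± SD of 6 arrays. In no row do the lines overlap, because the genes were picked among those without overlap. ITGA11 in U2OS and IGFBP3 in hTERT-RPE1 also split by day. Rows are not comparable with each other in level.

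The identity of the lines was checked against markers of pigment epithelium and of osteoblasts. Of 24 pigment epithelium markers only 4 had a symbol here. GPNMB, a glycoprotein of pigmented cells, was clearly higher in hTERT-RPE1, with a median of 10.97 (10.85 to 11.08) against 7.70 (7.55 to 7.95) in U2OS, a 9.47-fold difference (limma adjusted p 4.69e-14). RLBP1, the retinaldehyde-binding protein of the visual cycle, was at 3.94 to 4.35 in hTERT-RPE1 and 3.82 to 4.54 in U2OS, and its difference of -0.02 had a 95% interval from -0.25 to 0.22. The channels BEST1 (means 4.03 in hTERT-RPE1 and 4.24 in U2OS) and TRPM1 (4.25 and 4.08) had differences of 0.21 and -0.17, which were called but small. The call of BEST1 was lost in most alternative analyses. Defining markers such as RPE65 had no symbol and were not assessed. A list of 18 genes of photoreceptors and retina gave 6 calls (33.3%, against 65% of genes with a symbol), with no member 2-fold apart. Of these calls 1 was higher in U2OS and 5 in hTERT-RPE1 (0 and 7 with quantile normalization, 0 and 13 with arrays centred on their median). The means of the list lay between 2.80 and 7.14 in hTERT-RPE1 and between 2.82 and 6.91 in U2OS.

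Osteoblast markers did not fall to the U2OS side as a group. Of 26 listed, 8 had a symbol and 5 of them were called (62.5%), near the 65% of genes with a symbol and the 53.6% of all genes. Their median difference was 0.02, against -0.02 over all genes. RUNX2, the transcription factor that directs osteoblast formation, was higher in hTERT-RPE1, at 9.47 to 9.69 (median 9.60) against 7.17 to 7.86 (median 7.61) in U2OS, which is 4.07-fold (limma adjusted p 3.56e-11). MSX2, a homeobox factor of developing bone, was 4.43-fold higher in U2OS, with a median of 7.44 (6.88 to 7.53) against 5.20 (4.89 to 5.51), and its relative MSX1 was 1.77-fold higher there. The matrix genes COL1A2 (4.43 in hTERT-RPE1 and 4.47 in U2OS), IBSP (4.10 and 3.76), POSTN (4.42 and 3.37) and the osteocyte product SOST (4.95 and 4.94) were low in both lines. COL1A2, the alpha 2 chain of bone collagen, did not pass the test, with a 95% interval of the difference from -0.06 to 0.15. IBSP and POSTN were called higher in hTERT-RPE1, with log2 differences of -0.34 and -1.05, at values not shown to be above background. The osteoblast markers with a symbol thus did not set U2OS apart, and those of the bone matrix were low in U2OS. Markers of leukocytes (6 with a symbol), endothelium (3) and neurons (1) had means between 3.15 and 4.80 in both lines, and the largest difference among them was that of CD3D, 4.78 in U2OS against 4.01 in hTERT-RPE1.

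**Figure D3:**
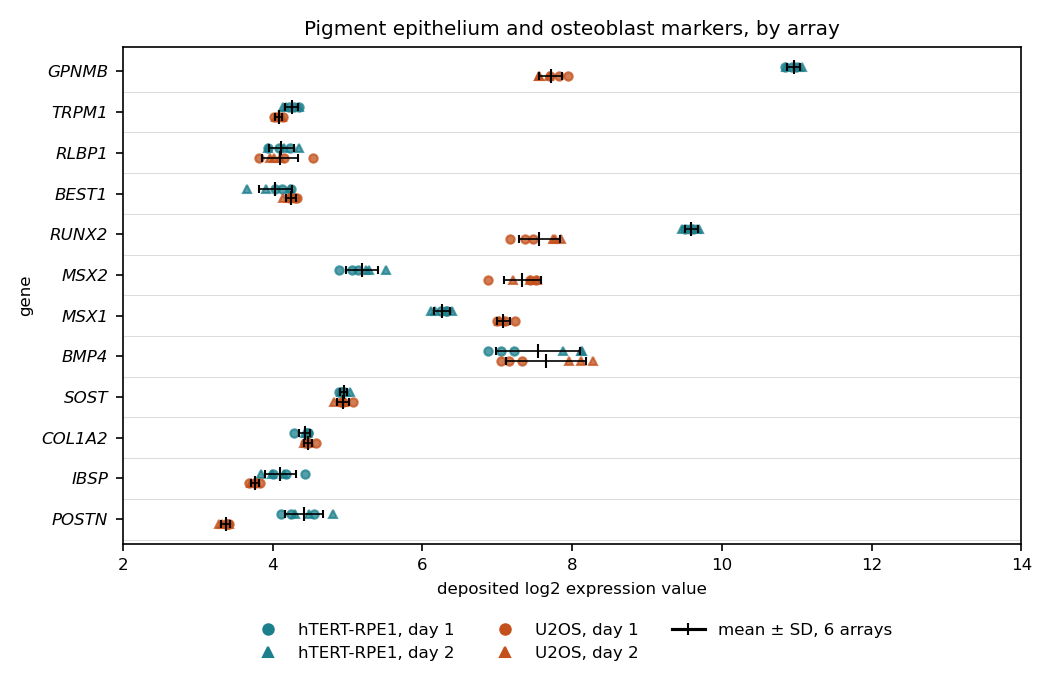
Deposited log2 values (horizontal axis) of 4 pigment epithelium markers (GPNMB to BEST1) and 8 osteoblast markers (RUNX2 to POSTN), with 1 symbol per control array and bars for the mean ± SD of 6 arrays. GPNMB and RUNX2 were higher in hTERT-RPE1, MSX1 and MSX2 in U2OS, and the bone matrix genes COL1A2 and IBSP stayed near 4 in both lines.

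Genes with a symbol were further grouped into 11 lists by function, made only from these 1924 genes, so that each list holds the genes of the screen and not the whole pathway. The background for their counts is therefore the 65% of genes with a symbol that were called and the 15.3% that were also at least 2-fold apart, beside 53.6% and 11.7% of all genes. Counts of members are given below as a description.

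Matrix genes differed strongly in both directions. Of 23 matrix proteins, 18 (78.3%) were called, 7 higher in U2OS and 11 higher in hTERT-RPE1, and 11 (47.8%) were at least 2-fold apart. The laminins, the cross-shaped proteins of basement membranes, were divided by chain. LAMB3, a chain of the epithelial laminin that anchors skin cells, was 8.06-fold higher in U2OS. It had a median of 10.35 (10.13 to 10.43) in U2OS and of 7.33 (6.92 to 7.53) in hTERT-RPE1. In contrast LAMB2 was 2.71-fold higher in hTERT-RPE1, at 9.16 to 9.45 against 7.84 to 7.90, and so were LAMB1 (1.84-fold) and LAMC1 (1.62-fold). Among collagens COL6A3 was 7.95-fold higher in U2OS (median 8.72 against 5.76), COL3A1 was higher in U2OS by 1.12 on the log2 scale, COL8A1 was 5.25-fold higher in hTERT-RPE1 and COL5A2 was lower in U2OS, with a log2 difference of -1.48. TGFBI, a matrix protein induced by TGF-beta, had a median of 11.15 (11.04 to 11.24) in hTERT-RPE1 and of 8.54 (8.10 to 8.66) in U2OS, a 6.39-fold difference. Fibronectin (FN1) was at 12.94 ± 0.06 in hTERT-RPE1 and at 11.80 ± 0.29 in U2OS (SD, n = 6), and was 2.21-fold higher in hTERT-RPE1.

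Among 28 enzymes and inhibitors of the matrix, 22 (78.6%) were called, 7 higher in U2OS and 15 higher in hTERT-RPE1. At least 2-fold apart were 9 (32.1%), 4 of them higher in U2OS and 5 higher in hTERT-RPE1. After CTSK, the heparan sulfate sulfatase SULF1 (7.88-fold) and the collagen cross-linking enzyme LOX (7.12-fold) led those higher in hTERT-RPE1, and LOX had a median of 11.67 (11.49 to 11.88) against 8.82 (8.79 to 8.99) in U2OS. On the U2OS side stood TIMP3, an inhibitor of metalloproteinases, with a median of 9.08 (9.03 to 9.34) against 5.91 (5.76 to 6.14), which is 9.42-fold, and the lysyl oxidase relative LOXL4, higher by 1.72 on the log2 scale. The lines thus differed in opposite directions for members of the lysyl oxidase family.

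In the retinoid list the 2 members at least 2-fold apart were ALDH1A3 and DHRS3, out of 12. The other called members differed little. RDH11, a retinol dehydrogenase, was 1.69-fold higher in U2OS (9.68 against 8.92), and the retinoic acid receptor RARA was 1.3-fold higher in hTERT-RPE1 (8.30 against 7.92). The related enzymes ALDH1A1 and ALDH1A2 had means of 2.98 and 3.78 in hTERT-RPE1 and of 2.92 and 3.94 in U2OS and were not called. With arrays centred on their median the called members of this list went from 3 higher in U2OS and 4 higher in hTERT-RPE1 to 1 and 6.

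Patterning transcription factors followed the lines rather than 1 direction, with 16 of 37 called higher in U2OS and 9 higher in hTERT-RPE1 (67.6% called, 24.3% at least 2-fold apart). After TFAP2A, FOXC2 (5.57-fold) and RUNX2 led on the hTERT-RPE1 side. HOXD10 and HOXC13, factors of limb and trunk position, were 4.73-fold and 3.43-fold higher in U2OS, with medians of 5.70 against 3.43 and of 6.86 against 5.14. HOXD13, of the same family, was 4.63 in both lines and was not called (95% interval -0.12 to 0.12). OLIG2, a factor of the neural lineage, was 3.82-fold higher in U2OS, though only at 6.15 to 6.40 there. With arrays centred on their median the count of this list became 16 against 15.

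Growth factors and their antagonists were split evenly, with 15 of 49 called higher in U2OS and 14 higher in hTERT-RPE1 (59.2% called, 28.6% at least 2-fold apart), or 12 and 19 with arrays centred on their median. Antagonists and binding proteins (IGFBP3, DKK1, SFRP1) led on the hTERT-RPE1 side. The ligand WNT5A was 3.12-fold higher in hTERT-RPE1, while WNT3A was 1.58-fold higher in U2OS at a low level (4.92 against 4.26). On the U2OS side the leading members were ligands. BMP5, a bone morphogenetic protein, had a median of 8.07 (7.39 to 8.53) against 3.65 (3.56 to 3.87), which is 20.1-fold between array values. The neuregulin NRG3 was 15.4-fold higher, with a median of 8.05 (7.56 to 8.65) against 4.13 (3.92 to 4.22). Insulin-like growth factor 2 (IGF2) was 12.6-fold higher, at 7.79 to 8.18 against 3.79 to 4.79, and the receptor IGF1R was 1.71-fold higher in U2OS. For the insulin-like growth factors the ligand and the receptor were thus higher in U2OS, and the binding protein IGFBP3 in hTERT-RPE1.

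Cytokine and NF-kB genes were called in 25 of 30 cases (83.3%), 16 higher in U2OS and 9 higher in hTERT-RPE1, and 13 (43.3%) were at least 2-fold apart. Besides IL18, the receptor CD40 was 17.8-fold higher in U2OS, at 8.50 to 8.82 (median 8.64) against 4.24 to 4.73 (median 4.48). The chemokine CXCL14 was 6.40-fold and the cytokine IL1A 5.97-fold higher in U2OS. TNFAIP3, BIRC3 and NFKBIE, which NF-kB induces and which restrain its signal or cell death, were 2.42-fold, 2.47-fold and 2.41-fold higher in U2OS. Other members of this list were higher in hTERT-RPE1, with log2 differences of -0.92 for PTGS2, -0.65 for TNFAIP2 and -1.10 for TNFRSF1B. The interleukin 1 receptor antagonist IL1RN was 2.24-fold higher in hTERT-RPE1, at 4.91 to 5.87 against 4.15 to 4.38, so that the agonist IL1A and its antagonist differed in opposite directions. STAT2, of the interferon pathway, was 1.74-fold higher in hTERT-RPE1 (8.39 against 7.60).

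Adhesion and surface molecules were more often called higher in hTERT-RPE1 (24 of 39) than in U2OS (8), with 82.1% called. At least 2-fold apart were 13 (33.3%), 8 of them higher in hTERT-RPE1 and 5 higher in U2OS. N-cadherin (CDH2), the cadherin of mesenchymal cells, was 2.63-fold higher in hTERT-RPE1, with a median of 11.25 (11.15 to 11.45) against 9.88 (9.56 to 10.12), and plakoglobin (JUP), a junction protein, was 3.79-fold higher there. NRP2, a receptor for semaphorins and VEGF, was 16.3-fold higher in hTERT-RPE1, at 7.78 to 8.03 against 3.62 to 3.94. The neural adhesion molecule NCAM1 was higher in U2OS, with a median of 7.93 (7.83 to 8.16) against 3.59 (3.34 to 3.97), or 20.1-fold between array values, and the membrane glycoprotein podoplanin (PDPN) was 6.22-fold higher there. Among integrin alpha chains the collagen receptors ITGA11 and ITGA1 (3.16-fold) and also ITGAV (log2 difference -0.63) were higher in hTERT-RPE1. The chain ITGAX (log2 difference 1.79) and the laminin receptor chain ITGA6 (1.59-fold) were higher in U2OS.

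**Figure D4:**
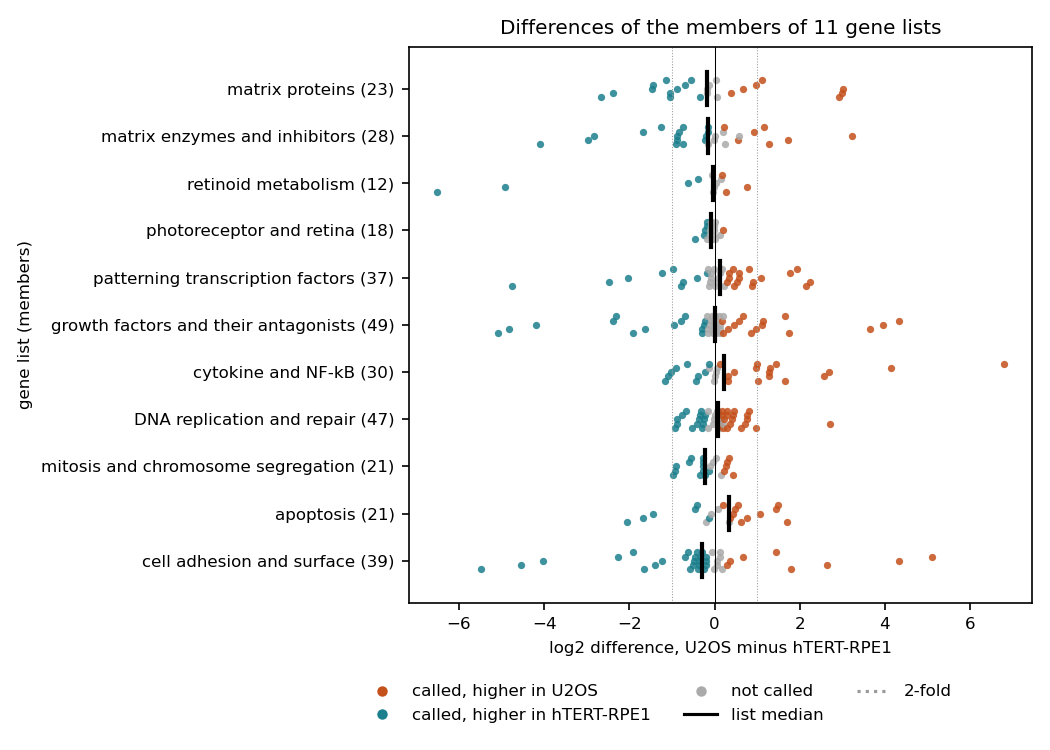
Each point is 1 gene, placed by its log2 difference (U2OS minus hTERT-RPE1, horizontal axis) in 1 of 11 lists, with the number of members in parentheses, a black bar at the list's median and dotted lines at a 2-fold difference. Lists such as retinoid metabolism, adhesion, growth factors and cytokines reach beyond 4 on the log2 scale. With both days pooled, as drawn here, DNA replication and mitosis genes, apart from CCNE1, stay inside the 2-fold lines.

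Genes of the cell cycle differed by little when both days were pooled. Of 47 genes of DNA replication and repair, 33 (70.2%) were called, 19 higher in U2OS and 14 higher in hTERT-RPE1, and only 1 (2.13%) was at least 2-fold apart. That gene was CCNE1, cyclin E1, which drives entry into S-phase. Its values were 10.09 to 10.22 (median 10.13) in U2OS and 7.33 to 7.54 (median 7.41) in hTERT-RPE1, a 6.55-fold difference (SE of the log2 difference 0.05, limma adjusted p 1.48e-14). Its relative CCNE2 differed in the opposite direction and was 1.70-fold higher in hTERT-RPE1, with a median of 9.41 against 8.63. The S-phase transcription factor MYBL2 (1.95-fold) and the helicase subunit CDC45L (1.76-fold) were higher in U2OS. On day 2 alone their log2 differences were 1.12 and 1.03, and on day 1 alone that of NEIL3 was -1.13. The change of this list between days is described below. E2F1 and its partner TFDP1, which switch on S-phase genes, did not pass the test, with 95% intervals from -0.17 to 0.12 and from -0.07 to 0.12. Of 5 CDK inhibitor, RB and E2F genes with a symbol 1 was called (20%, against 65% of genes with a symbol). With arrays centred on their median the called genes of replication and repair became 12 higher in U2OS and 17 higher in hTERT-RPE1.

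Pooled over both days, mitotic genes were called in 17 of 21 cases (81.0%), 12 of them higher in hTERT-RPE1 and 5 higher in U2OS. None was at least 2-fold apart in this pooled value. On day 1 alone the log2 differences were -1.15 for KIF11, -1.15 for NCAPG and -1.07 for CKAP2. Of the 21 genes, called or not, 4 were higher in U2OS on day 1, 10 on day 2 and 17 in the day 3 arrays. This change is described below. The spindle motor KIF11 had a median of 10.32 (10.09 to 10.44) in hTERT-RPE1 and of 9.33 (9.24 to 9.34) in U2OS. CKAP2 and the condensin subunit NCAPG were 1.89-fold and 1.87-fold higher in hTERT-RPE1. The kinesin KIF2C was 1.35-fold higher in U2OS. With arrays centred on their median the pooled calls became 13 higher in hTERT-RPE1 and 1 in U2OS.

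Genes of apoptosis and stress response were called in 17 of 21 cases (81.0%), 11 higher in U2OS and 6 higher in hTERT-RPE1, and 7 (33.3%) were at least 2-fold apart. With arrays centred on their median the calls became 10 higher in U2OS and 8 higher in hTERT-RPE1. The initiator caspase CASP8 was 2.82-fold higher in U2OS, at 7.98 to 8.21 against 6.46 to 6.73. PMAIP1, which encodes the BH3-only protein NOXA, was 3.26-fold higher in U2OS, and PERP, a membrane protein of desmosomes, was 4.14-fold higher in hTERT-RPE1. PERP had a median of 9.99 (9.93 to 10.07) against 7.92 (7.85 to 8.03). APAF1, the scaffold of the apoptosome, was 2.74-fold higher in hTERT-RPE1, at 7.36 to 7.52 against 5.85 to 6.07. HRK, a further BH3-only protein, was 2.73-fold higher in U2OS.

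The genes that the study depletes were compared as they stood under control siRNA. CASP8AP2, which acts in histone mRNA processing, had values of 7.30 to 7.71 (median 7.60) in hTERT-RPE1 and of 6.68 to 7.02 (median 6.91) in U2OS, so that every U2OS array was lower. It was 1.62-fold higher in hTERT-RPE1 (log2 difference -0.70, SE 0.08, limma adjusted p 1.55e-06). HINFP, a transcription factor of histone H4 genes, was 1.26-fold higher in hTERT-RPE1, at 7.66 to 7.83 against 7.23 to 7.60 (limma adjusted p 8.62e-05). NPAT, which activates histone genes in S-phase, was at 8.58 to 8.87 in hTERT-RPE1 and 8.83 to 9.04 in U2OS, and these overlapped. Its difference of 0.15 was called (limma adjusted p 0.0324), but with arrays centred on their median it was 0.01 (limma adjusted p 0.921). The histone chaperone subunit CHAF1B, of the complex that places histones on new DNA, was 1.90-fold higher in hTERT-RPE1 (median 9.21 against 8.30). Genes of the canonical histones had no symbol here.

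The difference between the lines also changed from day 1 to day 2 for 1776 genes (8.05%) by the limma interaction of line and day, 1008 towards U2OS and 768 towards hTERT-RPE1. This split had no firm direction, since it was 876 and 856 with quantile normalization, 841 and 904 with cyclic loess and 817 and 930 with arrays centred on their median. Of the 2573 genes at least 2-fold apart, 524 (20.4%) were among them, and all 2573 kept the same direction on both days. HAS2, a hyaluronan synthase, had the largest such change among genes with a symbol. In hTERT-RPE1 its mean was 7.42 on day 1 and 5.69 on day 2, and in U2OS it was 6.77 and 7.47, so the difference went from -0.65 to 1.78 (limma adjusted p 2.07e-06) and its pooled value of 0.57 did not pass the test. The hypoxia-responsive carbonic anhydrase CA9 was at 8.21 and 9.54 in hTERT-RPE1 and at 5.53 and 5.20 in U2OS. ITGA11 had means of 10.40 and 10.54 in hTERT-RPE1 and of 5.50 and 4.49 in U2OS, while IGFBP3 had means of 10.58 and 9.51 in hTERT-RPE1 and of 4.94 and 4.97 in U2OS. BMP5 was at 3.69 and 3.65 in hTERT-RPE1 and went from 7.50 to 8.50 in U2OS.

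Mitotic genes shared a direction in this change. The interaction was called for 13 of 21 (61.9%, against 8.05% of all genes and 12.4% of those with a symbol), each time towards U2OS, and for 11 to 12 of 21 with the other 3 scalings, again each time towards U2OS. All 21 were lower on day 2 than on day 1 in hTERT-RPE1, with a median change of -0.31, and 17 were higher on day 2 in U2OS, with a median change of 0.10. The median difference of the list was -0.37 on day 1 and -0.04 on day 2, and in the day 3 arrays, which were normalized apart, it was 0.44. KIF11, for example, went from 10.44 to 10.13 in hTERT-RPE1 and stood at 9.30 and 9.33 in U2OS, and its difference was -1.15 on day 1, -0.80 on day 2 and -0.08 on day 3. For DNA replication and repair the interaction was called for 15 of 47 genes (31.9%, 12 to 14 with the other scalings), also each time towards U2OS, and the median difference was -0.05 on day 1, 0.22 on day 2 and 0.44 on day 3.

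**Figure D5:**
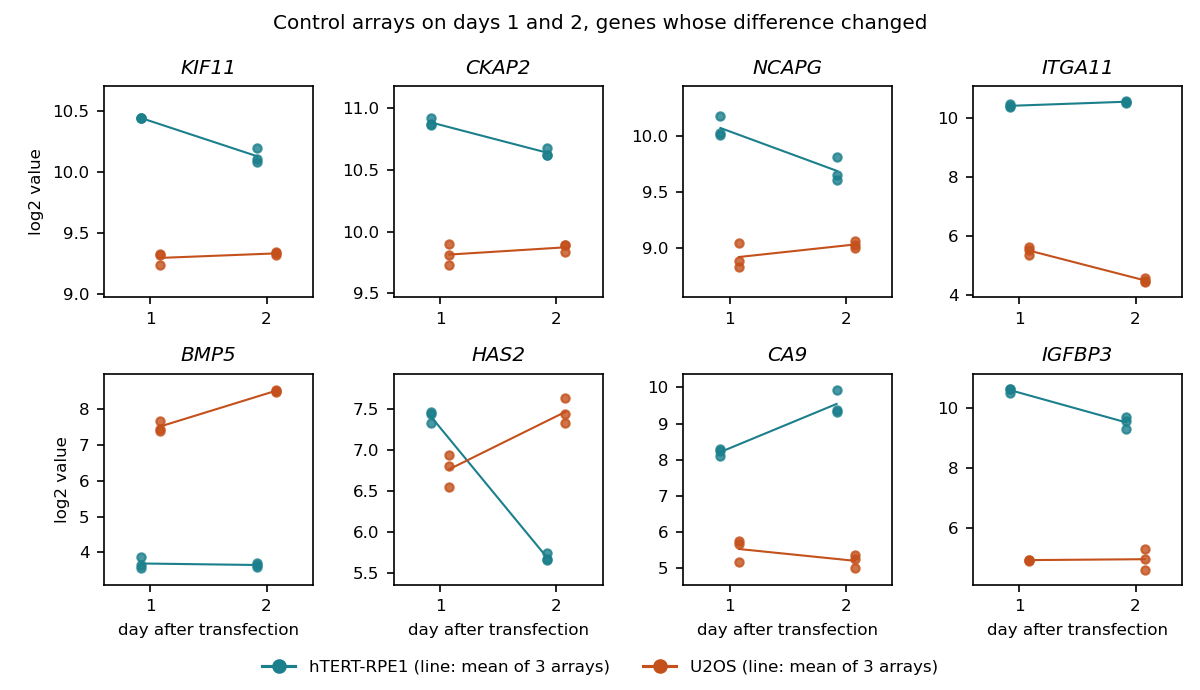
Deposited log2 values (vertical axis, scaled to each gene) of the control arrays on day 1 and day 2 after transfection (horizontal axis), with 1 point per array and lines through the means of 3 arrays, for 8 genes whose difference between the lines changed. KIF11, CKAP2 and NCAPG were lower on day 2 in hTERT-RPE1 only, and the order of the lines was turned for HAS2.

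In the 4 control arrays of day 3, 10831 of the 11837 called genes (91.5%) and 2569 of the 2573 genes at least 2-fold apart (99.8%) had the same direction as on days 1 and 2. Of the genes that were not called, 62.1% did. IL18 was higher in U2OS by 7.33 on day 3 and CCNE1 by 2.77 on the log2 scale, and the difference of ALDH1A3 was -6.78, of SFRP1 -4.60 and of RUNX2 -1.80. Differences of day 3 were not tested against those of days 1 and 2.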

How the data were processed

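Total RNA of transfected cells was hybridised to Affymetrix Human WT 1.1 arrays, and the samples were grouped by the labels (line, siRNA, day). Per the methods and labels the authors processed the arrays with affy (RMA) and a custom probe grouping, 1 probe set per Ensembl gene, and deposited log2 values for 22069 genes. The version of the grouping and its genome build are not given in the sources used here. Differences were fitted with limma 3.58.1 (R 4.3.3, lmFit and eBayes) over the 12 control arrays with line and day as terms, and their change between days as an interaction. Tests were two-sided, with Benjamini-Hochberg adjustment over all genes and calls at an adjusted p under 0.05. The fit was tested on simulated data. Labels call the replicates biological, but the methods describe only the day 3 duplicates, which were transfected together, and p-values measure the spread between these arrays, which may be technical. The same replicate number in different groups did not mark shared deviations (r between -0.03 and 0.07). No 2 arrays were identical.

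Symbols are the authors' own pairing, printed as they wrote them (CDC45L is CDC45), and cover 8.72% of the genes. Of 26 gene lists 3 had no member with a symbol, and 11 lists were added from the symbols at hand. Named were the 10 largest differences each way among called genes without overlap, up to 4 list members each way, up to 3 changes between days each way, and a fixed set. Of the genes so named, not all are described, some are not reported here, and ALDH1A1, ALDH1A2, BIRC3, E2F1, HOXD13, LAMB1, LAMC1, NFKBIE, SOST, TFDP1, TNFAIP2 and TNFAIP3 were picked after their values were seen. The members and lists were chosen with earlier results of these data known. Alternatives were other scalings, a replicate block, a filter on dim genes, other variance models, 24 arrays in 1 fit, each day alone and each array left out.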

Additional observations from a re-analysis of the deposited data

Results flagged for a closer look

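For 41 of 136 named genes the difference between U2OS and hTERT-RPE1 on day 2 was not that on day 1, by the limma interaction of line and day at an adjusted p under 0.05. Values below are the change of the log2 difference (U2OS minus hTERT-RPE1) from day 1 to day 2, and 29 were positive and 12 negative.

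Among genes higher in hTERT-RPE1, the difference grew for CA9 (-1.66), PLCB4 (-1.22), ITGA11 (-1.15), CDH2 (-0.61), ITGAV (-0.57), COL5A2 (-0.53), FN1 (-0.48) and WNT5A (-0.44). These are adhesion and matrix genes but for CA9, the phospholipase PLCB4 and the ligand WNT5A. It shrank for PTGS2 (1.35), IGFBP3 (1.1), IL1RN (0.84), DHRS9 (0.64), PCDH18 (0.49), POLH (0.46) and RPL36 (0.46). For RPL36 the difference on day 2 was 0.012, with the sign turned.

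Cell cycle genes all had a positive value. It was 0.55 for NUF2, 0.51 for NEIL3, 0.49 for NCAPG, 0.48 for CEP55, 0.38 for CCNA2, 0.37 for ECT2, 0.35 for KIF11 and 0.30 for CKAP2. Pooled over both days these were higher in hTERT-RPE1, but the difference of NUF2 was 0.0026 on day 2 alone. The change was 0.66 for KIF18B, 0.62 for GTSE1, 0.57 for KIF2C, 0.52 for ORC1L, 0.42 for CDC45L and 0.31 for MYBL2. Pooled over both days these were higher in U2OS, but on day 1 alone the difference was -0.027 for KIF18B and 0.041 for GTSE1.

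Among the others, the order of the lines turned for HAS2 (2.42), which was higher in hTERT-RPE1 on day 1, the difference grew in favour of U2OS for IL8 (1.61), IL13RA2 (1.40), BMP5 (1.04), PTHLH (0.61), LAMB3 (0.53), ITGA6 (0.51) and PMAIP1 (0.49), and shrank for NRG3 (-1.13), IL2RB (-0.87), OLIG2 (-0.43) and COL6A3 (-0.35).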

How the results depend on the processing

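No processing alternative moved the count of called genes (10198 to 15735) or that of changes between days (1568 to 2364) by over 1.5 times, and the count at least 2-fold apart moved so far only under a stricter fold. It was 2573, lay between 2540 and 2690 under other scalings, filters, models and single days, was 1804 with limma's test against a 2-fold difference, and 870 with a 4-fold limit, which is narrower by construction. Leaving out each array in turn gave 11350 to 11698 called genes, 2562 to 2604 at least 2-fold apart and 1321 to 1832 changes between days. A paired analysis with a replicate block gave 11621, 2573 and 1568, and among named genes it ended only the calls of BEST1 and RPL36. Of called genes 91.5% kept their direction on day 3, 99.8% of those at least 2-fold apart, and 90.1% to 91.3% without 1 day 3 array, which was decided after seeing the data.

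Centring on the median changed the directions of small differences. With it 30.5% of called genes were higher in U2OS, against 50.3% after quantile or cyclic loess normalization, and 46.8% of changes between days were towards U2OS, against 56.8%, 50.6% with quantiles and 48.2% with loess. The counts of changes between days in gene lists under other scalings were chosen after seeing the data. The sign turned for COL1A2 (-0.10 centred, -0.0304 with quantiles), for RLBP1 (0.0838 on day 1 alone, and -0.111 to 0.0487 without 1 array), for KIF18B (-0.0271) and HAS2 (-0.65) on day 1 alone, and for NUF2 (0.0026) and RPL36 (0.0118) on day 2 alone. For COL1A2 and RLBP1 no value was called. Of the values of named genes, 1351 of 1407 under other settings and 1640 of 1692 without 1 array kept direction and side of the threshold, and no gene with a difference over 2-fold changed sign.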
